A study of Mus musculus with 8 samples.

Results

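Chromatin was mapped by ATAC-seq in cell lines grown from mouse mammary tumors, and the regions described here had a peak in both libraries of Lats1-CKO basal-like cells and in none of the other 6 libraries of the series. They were chosen by the presence of peaks alone. Peaks of all 8 libraries were merged wherever they overlapped by at least 1 bp, which gave 183194 regions, and 3628 of these (1.98%) met the rule and are called members. Because the rule used these peaks, the counts and scores below describe the members and carry no test, and regions are not replicates of a condition.

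All cells came from tumors of MMTV-PyMT mice of strain FVB/N (written FBV/N in the labels), in which a viral oncogene drives tumor growth in the mammary epithelium. The 4 groups of 2 libraries were WT luminal (BM1, BM5), WT basal-like (BM2, BM6), Lats1-CKO luminal (BM3, BM7) and Lats1-CKO basal-like (BM4, BM8) cells. Luminal cells had been sorted as EpCAM-high and CD49f-high, and basal-like cells as EpCAM-low and CD49f-high. According to the study, the sorted cells were grown for a short time in culture before ATAC-seq. It also reports that sorted WT basal-like cells became partly luminal over passages, whereas Lats1-CKO basal-like cells stayed basal-like. How far the cells of these libraries had changed after the sort was not tested. Lats1 was deleted conditionally in the epithelium, and neither the Cre driver nor the number of tumors or lines behind each library is given in the sources used here. Whether the 2 libraries of a group came from separate cultures is not stated in the labels.

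Lats1 is a kinase of the Hippo pathway. It phosphorylates the coactivators YAP and TAZ and so keeps them out of the nucleus, where they bind DNA mostly through TEAD factors, often at enhancers that also bind AP-1. The study reports that Lats1-CKO basal-like cultures stayed basal-like after depletion of Yap or Taz. It proposes that LATS1 acts with the corepressor NCOR1 and the histone deacetylase HDAC1. Neither route was tested here. In the mammary gland, basal cells contact the basement membrane and contract, while luminal cells line the ducts and can express the estrogen receptor. ATAC-seq marks DNA that a transposase can reach, mainly promoters and enhancers.

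The sequences of 4 members with high scores are given first, because these were among the strongest peaks that no other library shared. Sequences are from the plus strand of GRCm38 (RefSeq), a C57BL/6J genome, so they are not read from the FVB/N cells themselves. Capitals mark the AP-1 letters TGANTCA, the TEAD letters ACATTCC or the letters CAGGTG, on either strand.
Itga5: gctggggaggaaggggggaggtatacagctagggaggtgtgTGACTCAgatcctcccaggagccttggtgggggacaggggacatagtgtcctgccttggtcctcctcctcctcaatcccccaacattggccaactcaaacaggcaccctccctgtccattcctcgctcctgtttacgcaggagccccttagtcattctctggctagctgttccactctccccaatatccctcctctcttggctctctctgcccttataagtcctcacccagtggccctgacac
Cartpt: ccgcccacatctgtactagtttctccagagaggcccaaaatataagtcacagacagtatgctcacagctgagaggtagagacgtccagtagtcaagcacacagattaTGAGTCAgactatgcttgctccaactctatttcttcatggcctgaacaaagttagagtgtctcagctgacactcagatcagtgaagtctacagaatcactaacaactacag
Tnr: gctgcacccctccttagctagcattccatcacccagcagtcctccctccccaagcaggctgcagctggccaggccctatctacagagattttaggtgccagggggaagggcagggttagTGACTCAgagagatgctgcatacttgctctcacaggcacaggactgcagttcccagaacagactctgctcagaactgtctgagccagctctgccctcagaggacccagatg
Tet1: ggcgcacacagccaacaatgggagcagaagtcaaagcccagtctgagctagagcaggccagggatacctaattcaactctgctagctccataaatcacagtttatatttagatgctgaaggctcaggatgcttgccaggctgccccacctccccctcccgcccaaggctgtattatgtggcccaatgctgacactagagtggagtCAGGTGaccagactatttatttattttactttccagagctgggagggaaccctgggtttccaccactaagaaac

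The member near Itga5 (chr15:103368194-103368477 of GRCm38) was intergenic, 1573 bp upstream of the nearest start site of this gene, which encodes the alpha subunit of a fibronectin receptor. A score percentile is the rank of a peak's score among all peaks of its own library, and this member reached the percentile 85.9 in BM4 and 83.5 in BM8. The member near Cartpt, a neuropeptide gene, was at chr13:99830189-99830406, 70343 bp from the start site, with percentiles of 80.1 and 85.5. The member near Tnr, which encodes a tenascin of the extracellular matrix, was at chr1:159517822-159518051, 5832 bp upstream, and its percentiles were 95.8 and 76.6. These 3 members held an AP-1 match each, which at Itga5 lay outside the central 200 bp searched below. The member in an intron of Tet1, a gene for an enzyme that oxidizes methylcytosine, was at chr10:62843819-62844097 with percentiles of 77.8 and 75.8, and held a CAGGTG match and no AP-1 match. The remaining member of the 5 highest, 18960 bp from Amdhd1 at chr10:93520906-93521240, had percentiles of 79.1 and 80.6. The nearest WT peak lay between 1523 bp (Itga5) and 14411 bp (Amdhd1) from these 5 members.

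The further sequences come from some of the genes that were nearest to several members. The sequences shown are not a sample of the members and hold AP-1 letters more often than the members as a whole. At other genes, members without the marked letters were found: the 3 members of Myof, a target of YAP and TAZ, had no AP-1 or TEAD match. The 2 members of Esr1 and the 2 of Spi1 had no AP-1 match. Inhba encodes the beta A subunit of activins and inhibins, ligands of the TGF-beta superfamily, and 5 members lay nearest to it. All 5 held the AP-1 letters, which were found in the central 200 bp of 39.1% of all members and 26.1% of all regions.
Inhba member 1: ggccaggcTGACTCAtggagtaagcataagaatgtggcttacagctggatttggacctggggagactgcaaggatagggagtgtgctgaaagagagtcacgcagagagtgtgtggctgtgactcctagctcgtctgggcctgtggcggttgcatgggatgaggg
Inhba member 2: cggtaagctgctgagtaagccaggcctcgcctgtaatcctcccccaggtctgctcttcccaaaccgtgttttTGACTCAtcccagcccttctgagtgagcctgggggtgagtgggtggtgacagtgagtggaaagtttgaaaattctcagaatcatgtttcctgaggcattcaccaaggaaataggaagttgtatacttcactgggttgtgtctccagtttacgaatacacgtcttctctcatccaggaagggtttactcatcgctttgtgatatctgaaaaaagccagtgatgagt
Inhba member 3: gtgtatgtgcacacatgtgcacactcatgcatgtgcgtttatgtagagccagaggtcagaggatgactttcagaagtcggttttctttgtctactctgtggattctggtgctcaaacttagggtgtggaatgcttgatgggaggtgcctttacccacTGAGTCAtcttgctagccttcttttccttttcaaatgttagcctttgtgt
Inhba member 4: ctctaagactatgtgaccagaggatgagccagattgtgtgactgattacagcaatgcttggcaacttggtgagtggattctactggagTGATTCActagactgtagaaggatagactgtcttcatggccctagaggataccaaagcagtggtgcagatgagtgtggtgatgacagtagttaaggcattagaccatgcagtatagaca
Inhba member 5: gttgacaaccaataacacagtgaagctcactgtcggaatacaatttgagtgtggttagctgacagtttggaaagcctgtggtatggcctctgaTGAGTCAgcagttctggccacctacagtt

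The Inhba members stretched over chr13:15762515-16314898, between 26592 and 300363 bp from a start site of the gene, 3 of them in intergenic DNA and 2 in introns of annotated genes. Their percentiles were low to middling. Member 2 had 57.0 in BM4 and 67.3 in BM8, while member 3 had 2.45 and 29.2. In all, 90 regions were nearest to Inhba.

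Crim1 encodes a membrane protein that binds ligands of the same superfamily and is counted among the targets of YAP and TAZ. Its 4 members were all intronic, and 3 held AP-1 letters and 1 the TEAD letters.
Crim1 member 1: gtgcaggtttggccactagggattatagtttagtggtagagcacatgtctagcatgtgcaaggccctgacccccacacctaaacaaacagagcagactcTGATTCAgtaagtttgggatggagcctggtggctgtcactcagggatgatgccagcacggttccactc
Crim1 member 2: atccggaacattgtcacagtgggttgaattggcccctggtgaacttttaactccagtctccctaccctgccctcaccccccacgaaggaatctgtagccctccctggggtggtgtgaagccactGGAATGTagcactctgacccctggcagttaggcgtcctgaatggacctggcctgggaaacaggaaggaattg
Crim1 member 3: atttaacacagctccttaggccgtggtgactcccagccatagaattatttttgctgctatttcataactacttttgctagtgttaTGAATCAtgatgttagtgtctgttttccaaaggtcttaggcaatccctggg
Crim1 member 4: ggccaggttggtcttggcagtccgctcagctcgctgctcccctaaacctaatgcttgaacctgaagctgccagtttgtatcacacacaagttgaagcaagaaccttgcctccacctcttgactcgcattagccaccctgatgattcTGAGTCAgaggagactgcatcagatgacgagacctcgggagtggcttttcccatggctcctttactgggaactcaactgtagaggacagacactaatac

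These members lay at chr17:78208930-78209096, chr17:78225617-78225812, chr17:78269388-78269523 and chr17:78339552-78339796. Their percentiles reached 64.5 in BM4, and in BM8 they ran from 14.2 to 51.8. A region 5097 bp from a start site of Col6a3, a collagen chain gene, is shown because it held a pair of adjoining TEAD matches and a pair of AP-1 matches within 159 bp (chr1:90838752-90838910). It was chosen for display after its letters were seen. This region lay in a noncoding exon, within 1 kb of a start site of a gene not annotated as protein-coding. Its percentiles were 36.8 in BM4 and 21.9 in BM8.
Col6a3 member: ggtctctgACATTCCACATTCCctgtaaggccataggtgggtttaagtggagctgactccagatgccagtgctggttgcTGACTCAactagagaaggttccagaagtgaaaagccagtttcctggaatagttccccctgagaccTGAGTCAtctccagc

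The libraries differed in size and likeness in ways that bear on which regions qualified. Their peaks numbered from 14753 in BM3 to 99022 in BM8, and the next largest lists were BM7 with 93467 and BM4 with 86279. The lists hold no read counts, so a missing peak means that none was called and not that the DNA was closed. BM3 hardly limited the set, since 3641 regions met the rule without it. BM7 limited it most: without this Lats1-CKO luminal library, 6359 regions met the rule. The pair BM7 and BM8, of different sorted populations, had 7905 regions to itself, more than any of the other 27 pairs, and BM4 and BM8 came next with 3628. BM4 and BM7 had 1639, and the replicate pairs of the other groups had 553 (BM1 and BM5), 146 (BM2 and BM6) and 29 (BM3 and BM7). In these replicate pairs the smaller list was that of BM5 (58783 peaks), BM6 (51497) or BM3, and the counts are not adjusted for list size. BM7 and BM8 thus had more private regions than BM4 and BM8, so the order of pairs did not follow the labelled populations. Whether BM7 and BM8 shared a day, a line or another step is not stated in the labels and was not tested.

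**Figure D1:**
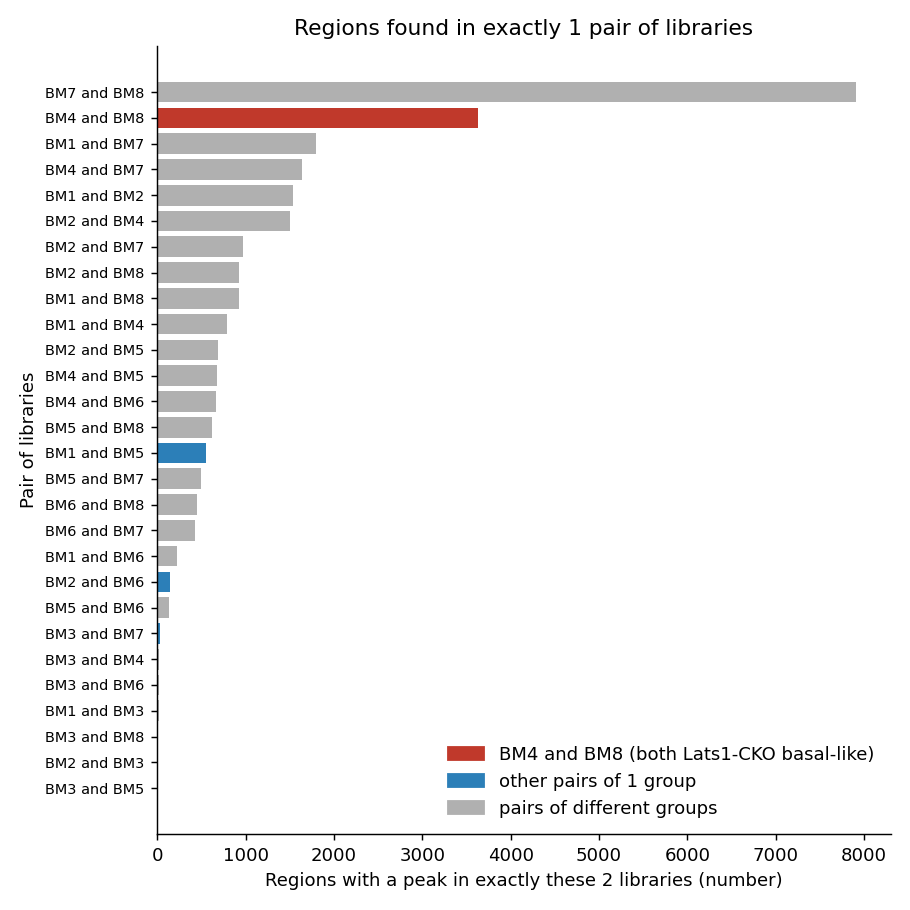
Number of regions with a peak in exactly the 2 libraries named, for each of the 28 pairs; the red bar is BM4 and BM8, blue bars are the other pairs of 1 group and grey bars are pairs of different groups. BM7 and BM8 lead with 7905 regions, followed by BM4 and BM8 with 3628.

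Most private regions were found in a single library. Of the 23817 regions with a peak in BM4 and none in the 6 libraries outside the group, 15.2% had a peak in BM8. Of the 24870 such regions of BM8, 14.6% had a peak in BM4. Once the WT libraries and BM3 alone were required to lack a peak, BM8 regions had a BM7 peak in 29.9% of cases and a BM4 peak in 17.9%, whereas BM4 regions had a BM8 peak in 22.5% and a BM7 peak in 15.5%. Seen from the regions that BM4 and BM8 shared, which numbered 52240, the members were the 3628 with no further library, and 10907 regions had a peak in all 6 others.

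Just outside the rule were 4746 regions with a peak in BM4, BM8 and exactly 1 other library. In 2726 of them that library was BM7, in 821 BM2, in 474 BM1, in 377 BM6, in 335 BM5 and in 13 BM3. The median percentile of the extra peak was between 20.1 (BM3) and 35.4 (BM7), so these peaks too were mostly weak. In those that only BM7 joined, the median percentile was 36.4 in BM4 and 47.2 in BM8, against 32.7 and 29.2 in the members.

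The sorted populations were checked at the promoters of their marker genes, within 1 kb of a start site. Epcam, the surface protein used for the sort, had a promoter peak in 6 libraries and in neither BM4 nor BM8. Krt18, a luminal keratin gene, had none in BM4, in BM8 or in BM3, the library with the fewest peaks. Krt14, a basal keratin gene, Krt8, a luminal one, and Itga6, which encodes CD49f, had a promoter peak in every library. Krt5, a basal keratin gene, had such a peak in BM7 alone. The Lats1 promoter had a peak in every library but BM3. This does not check the deletion, because the study's text does not state which part of Lats1 was removed. None of the regions nearest to Lats1, Epcam, Krt5, Krt14, Krt8 or Krt18 was a member. Itga6 had 1 member among its 31 regions, 92157 bp from a start site, with percentiles of 21.6 in BM4 and 12.3 in BM8.

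The members were weak peaks of both libraries. The median percentile was 32.7 in BM4, with quartiles of 21.6 and 52.3, and 29.2 in BM8, with quartiles of 14.2 and 45.6. In BM4 1055 members (29.1%) stood at the 50th percentile or above, in BM8 663 (18.3%), and 252 (6.95%) did so in both. Only 18 reached 70 in both. The highest single values were 99.1 in BM4 and 92.4 in BM8. Regions of BM4 alone had a median percentile of 21.6 and those of BM8 alone 18.5, so members stood somewhat higher than peaks that no other library shared. This was not particular to the members: regions of exactly 2 libraries had medians of 32.7 in BM4 and 38.3 in BM8. The regions private to BM7 and BM8 had medians of 31.2 in BM7 and 45.6 in BM8.

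The percentiles of a member in BM4 and BM8 were hardly related. Spearman's rho was 0.0987 over the 3628 members, given as a description of points that share 2 libraries. The percentile was the higher one in BM4 for 2140 members (59.0%). Near the limit of calling, with a score of 20 or less where the lists begin at 13, were 211 members in BM4 and 209 in BM8.

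**Figure D2:**
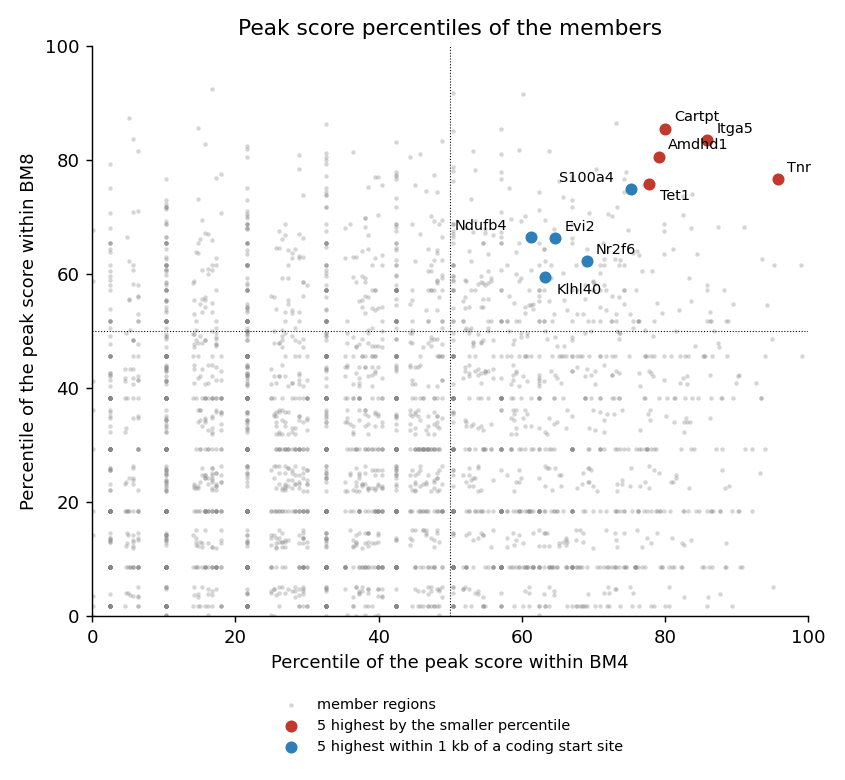
Percentile of the peak score within BM4 (horizontal) and within BM8 (vertical) for each of the 3628 members; dotted lines mark 50, red points are the 5 members highest by the smaller of both percentiles and blue points the 5 highest within 1 kb of a coding start site. Most points lie below 50 on at least 1 axis, and 252 lie at 50 or above on both; the stripes are scores that many peaks share.

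Members mostly lay away from promoters. Their median width was 165 bp (range 82 to 884), against 153 bp for all regions and 162 bp for regions of exactly 2 libraries. The centre lay within 1 kb of an annotated start site in 430 members (11.9%), against 18.4% of all regions, 14.4% of regions of exactly 2 libraries, 13.7% of those private to BM4 and BM7 and 12.7% of those private to BM7 and BM8. Within 5 kb were 1193 members (32.9%), against 37.1% of all regions. The median distance was 9518.5 bp, and 354 members (9.76%) were more than 50 kb away. By the annotation, 54.3% of the centres were in introns, 38.4% between genes and 7.33% in exons. The share near start sites was thus lower than over all regions and close to that of other regions of 2 libraries, and members near and far from start sites had the same median percentiles, 32.7 in BM4 and 29.2 in BM8. At the 50th percentile or above in both libraries were 4.65% of the members within 1 kb and 9.04% of those over 50 kb away.

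The promoter members with the highest scores were at genes of varied function. A region 69 bp upstream of a start site of S100a4, which encodes a calcium-binding protein of motile and mesenchymal cells, was at chr3:90603585-90603819, with a percentile of 75.3 in BM4 and 74.8 in BM8. Its central 200 bp held no match to any of the 14 motifs searched. At Evi2 (chr11:79530469-79530629) the percentiles were 64.7 and 66.3. At Nr2f6, an orphan nuclear receptor gene, they were 69.1 and 62.3, and this region (chr8:71382759-71382920) held an AP-1 match. Ndufb4, a gene of respiratory complex I, had 61.3 and 66.4 (chr16:37654077-37654187), and Klhl40, a gene known from muscle, had 63.3 and 59.4 (chr9:121776505-121776795). The Ndufb4 region lay 131 bp from a WT peak and no longer met the rule once peaks within 500 bp were merged. In all, 334 members lay within 1 kb of the start site of a protein-coding gene.

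Members were often close to peaks of other libraries. The nearest peak of any of the 6 was a median of 4065 bp away. It lay within 500 bp of 528 members (14.6%), within 1 kb of 809 (22.3%) and within 5 kb of 2042 (56.3%). The nearest peak of a WT library was a median of 5461.5 bp away. For the distal members the promoter of the nearest coding gene mostly had peaks in the WT cells as well. Of the 3294 members over 1 kb from the nearest coding start site, 59.0% were nearest to a gene with a promoter peak in all 4 WT libraries and 20.3% to a gene with none, against 58.1% and 21.2% of all such regions. Thus members were near genes with open promoters about as often as regions in general. A gene whose promoter had a peak in BM4 and BM8 and in no WT library was nearest to 41 of them (1.24%), against 0.971% of all such regions.

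The members were nearest to 2799 protein-coding genes of the 18371 that were nearest to any region. Of these genes, 2237 had 1 member, 397 had 2 and 165 had 3 or more, and 23 had 5 or more. Zmiz1, a transcriptional coactivator gene (ENSMUSG00000007817, chr14:25459185-25666743), and Dysf, which encodes the membrane repair protein dysferlin (chr6:84008590-84211060), led with 9 members each. For Zmiz1 these were 9 of 136 regions (6.62%), and for Dysf 9 of 60, against 1.98% of all regions. Because these genes were ranked by the number of members, the excess is what the ranking chose and is no result about them.

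Several of the following genes encode transcription factors. Mecom, a zinc finger factor, had 8 members of 66 regions (12.1%), of which 2 were within 1 kb of a start site. Myc had 8 of 137 (5.84%), all between 61557 and 811504 bp from its start site and 5 of them in introns of other annotated genes. Trps1, a repressor of the GATA family that marks breast epithelium, had 7 of 105, and its members had a median smaller percentile of 35.05, against 18.5 over all members. Rora, a nuclear receptor, had 6 of 75. The others were Celf2, which encodes a splicing factor, with 6 of 102, Opcml, an adhesion protein gene, with 6 of 47, Trib2, a pseudokinase gene, with 6 of 97, and Lpp, which encodes a protein of focal adhesions, with 6 of 122. Most of these members were weak: the highest smaller percentile was 66.9, at Celf2 and Opcml, and 35.4 at Mecom. Among peaks above the median score of each library, Dysf and Mecom had 1 member each and Zmiz1 had 3.

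Gene lists were compared with the background of 1.98%. Targets of YAP and TAZ had 28 members among 725 regions (3.86%), spread over 17 of 22 genes. Beside Crim1 (4 of 66 regions) they included Myof, which encodes a membrane protein related to dysferlin, with 3 of 39. Asap1 had 2 of 84, Axl 2 of 9, Fjx1 2 of 13, Nt5e 2 of 45, Ptpn14 2 of 42 and Tgfb2 2 of 58. Ccn2, a matrix protein gene that YAP is widely known to switch on, had 1 member of 35 regions, 118975 bp away. A member at Axl, a receptor kinase gene, was 217 bp from a start site, while the other targets named so far had their nearest member between 4302 and 118975 bp away. Lats2, a paralog of Lats1, had 1 of 17 regions. No member was found among the 25 regions of Ccn1 (Cyr61), which the study used as a YAP and TAZ target, or the 18 of Ankrd1. Ajuba, Foxf2 and Gadd45a had none either. The promoters of this list had a peak in 22 genes in BM4 and 21 in BM8, but also in 21 in BM7 and 16 to 19 in the WT libraries. Such counts, here and for the lists below, are not adjusted for the number of peaks of a library. The share over all coding promoters is not given beside them.

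Mesenchymal and matrix genes had 23 members of 848 regions (2.71%) at 13 of 27 genes. Col6a3 led with 4 of 35 regions, followed by Dcn, which encodes the proteoglycan decorin, and Tcf4, a factor of the E protein family, with 3 each. Zeb2, a repressor that binds CAGGTG, had 2 members of 114 regions, and that at chr2:45126535-45126701 had percentiles of 69.9 in BM4 and 57.2 in BM8. Promoter peaks were present at 20 of the 27 genes in BM4 and at 17 in BM8, against 9 to 15 in the WT libraries, 14 in BM7 and 4 in BM3. BM4 and BM8 also had more peaks in all (86279 and 99022, against 51497 to 72685 in the WT libraries). These counts therefore cannot show a gain that is particular to mesenchymal genes. Col3a1, Col6a3, Lum and Prrx1 had a promoter peak in no library, while Cdh11, Postn and Thy1 had such a peak in BM4 alone. The part of fibroblasts in these values was not tested.

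Basal and myoepithelial genes had 8 members of 269 regions (2.97%). They included 2 at Trp63, a master regulator of basal cells, with percentiles of 21.6 and 25.7 in BM4 and of 18.5 and 13.7 in BM8, and 1 each at Acta2 and Itgb4. None was within 1 kb of a start site. Promoter peaks were present at 12 of the 20 genes in BM4 and at 13 in BM8. The WT libraries had 12 to 14, BM7 had 17 and BM3 had 7, so basal promoters had no more peaks in BM4 and BM8 than in WT cells. Luminal genes had 7 of 437 (1.60%), close to the background, at Esr1 (2), Grhl2 (2), Ehf, Krt19 and Pgr. An Esr1 member 15 bp from a start site of this estrogen receptor gene had a percentile of 47.7 in BM4 but 8.57 in BM8. Of the 24 luminal genes, 12 had a promoter peak in BM4 and 13 in BM8, against 14 to 22 in the WT libraries, 21 in BM7 and 12 in BM3.

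Genes of the TGF-beta pathway had 15 of 611 (2.45%). After Inhba came Smad7, an inhibitor of the pathway, with 3, while Smad3, which carries the signal to the nucleus, had 1 with percentiles of 70.2 in BM4 and 58.3 in BM8. AP-1 factor genes had 2 of 159 (1.26%), at Batf3 and Fos. A list of 7 genes taken from those the study assayed by RT-qPCR had 5 of 164 (3.05%), at Col5a1 (2), Fads1, Oxtr and Sema6a, and as the study chose them on related samples they are not independent of the design.

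The lists of endothelial and immune markers had 2 members each, with shares that lay on either side of 1.98%. Endothelial genes had 2 of 232 (0.862%). Immune genes had 2 of 78 (2.56%), both at Spi1, a factor of myeloid and B cells, whose promoter had a peak in BM4 and BM8 and in no other library. Of the 12 immune genes, 5 had a promoter peak in BM4 and 8 in BM8, against 6 in BM7 and 0 to 4 in the others. Adgre1, Itgam and Cd3e had none in any library, and Ptprc, which marks all leukocytes, had such a peak in BM8 alone. The part of immune cells in the members was not tested. Genes of absent tissues, such as Alb of liver, had 2 members of only 31 regions (6.45%), the highest share of all 10 lists. This list gives a measure of how far a share can lie from 1.98% where few regions are counted.

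Members also lay in small neighbourhoods, defined as chains of at least 4 with at most 50 kb between neighbouring centres. There were 19 with 83 members (2.29%), and 986 members (27.2%) had at least 1 other within 50 kb. The private regions of BM7 and BM8, which are more numerous, formed 191 neighbourhoods, those of BM4 and BM7 formed 4 and those of BM2 and BM6 none. The largest held 6 members among 29 regions over chr11:67563287-67717262, all intronic, 5 of them nearest to Gas7, a gene first named for its expression in growth-arrested cells. Its members were weak, with smaller percentiles of 10.3 to 23.6. The number of neighbourhoods depended on the libraries and on the distance allowed: it was 101 without BM7, 29 without BM2, 2 at 25 kb and 68 at 100 kb.

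The following neighbourhoods held 5 members each. That at Tpcn2, a gene for an ion channel of lysosomes, held 5 of 14 regions (chr7:145243145-145309380), and 4 of them matched AP-1. A member 509 bp upstream of a Tpcn2 start site had percentiles of 81.6 in BM4 and 49.96 in BM8. That at Opcml held 5 of 16 regions (chr9:27758814-27843144), of which the member with the highest smaller percentile had 71.0 and 57.2. That upstream of Azin1, a regulator of polyamine synthesis, held 5 of 21 (chr15:38531955-38627541). That at Sh3rf3 held 5 of 11 (chr10:58960141-59059325), and 2 of its 11 regions had a peak in a WT library. Another neighbourhood of 5, with a wider span, held 5 of 31 regions (chr2:30657821-30779514), 18 of which had a WT peak. Of the 26 members at Gas7, Tpcn2, Opcml, Azin1 and Sh3rf3, 14 held AP-1 letters (53.8%), as did 41 of the 83 in all neighbourhoods (49.4%), against 39.1% of all members and 26.1% of all regions.

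Of the 19 neighbourhoods 5 were on chromosome 15, and members made up a higher share of its regions than of those of any other chromosome. There 246 of 7838 regions were members (3.14%), against 1.98% of all regions and 2.35% on chromosome 14, the next highest. The lowest share was on chromosome X, with 70 of 5370 (1.30%). Along chromosome 15 in steps of 10 Mb, the share was between 2.47% and 4.24% in each, so the excess was not limited to a single stretch. BM4 itself had 4.95% of its peaks on chromosome 15, BM8 4.26% and the other libraries 3.93% to 4.24%. The members there had median percentiles of 41.5 in BM4 and 32.02 in BM8, against 32.7 and 29.2 for the members elsewhere. The number of copies of the chromosome in these lines was not tested.

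**Figure D3:**
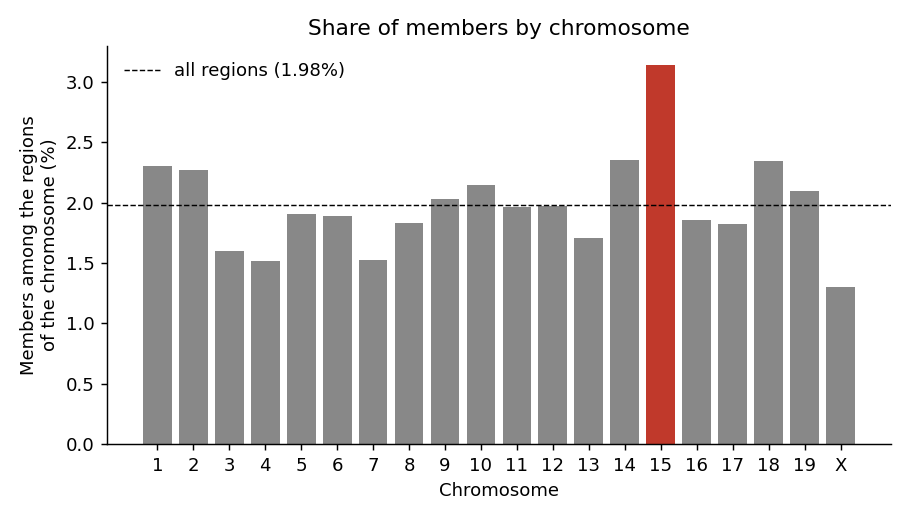
Percentage of the merged regions of each chromosome that were members; the dashed line is the share over all regions, 1.98%. Chromosome 15 (red) stands at 3.14% and chromosome X at 1.30%.

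Finally, 14 motifs were searched as exact letters on both strands of the central 200 bp, a window that is wider than most members. The letters were TGANTCA for AP-1, ACATTCC for TEAD, CAGGTG for the E-box of SNAI and ZEB repressors, TGTGGTT for RUNX, TGTTTAC for FOX, ACAATGG for SOX, AGATAA for the GATA family, AACCNGGTT for GRHL, CCGGAAGT for ETS, TTCCNGGAA for STAT, TTGCGCAA for CEBP, TTGGCA for a NFI half-site and GGGCGG for KLF and SP, and the estrogen response element was taken as GGTCA, a gap of 3 bases and its reverse complement. A match is a string of letters and not a bound site. No match to any of the 14 was found in 1145 members (31.6%).

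AP-1 was the most frequent match. It was present in 1419 members (39.1%), against 26.1% of all regions, 28.2% of regions of exactly 2 libraries, 24.7% of those private to BM4 and BM7 and 14.4% of those private to BM7 and BM8. By the smaller percentile of a member, the share was 39.1% up to 10, 36.3% from 10 to 25 and 40.7% from 25 to 50. It was 46.4% in the 252 members at the 50th percentile or above in both libraries, so it did not rise steadily with the score. The pattern was not particular to the members. Regions of BM2 alone, a WT basal-like library, had it in 40.1%, those of BM4 alone in 31.1%, those of BM8 alone in 22.1% and those of BM6 alone in 8.07%. With BM4 left out, so that BM8 alone defined the set, the difference from all regions was -0.937 percentage points in place of 13.02. Over 1 kb from a start site, 41.0% of members had them, against 29.1% of all regions and 30.3% of regions of exactly 2 libraries. Of distal regions that BM4 and BM8 shared with all 6 others, 46.3% had them.

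The CAGGTG letters were scarce in the members. They were found in 214 (5.90%), against 13.6% of all regions, 13.1% of regions of exactly 2 libraries and 7.13% of those private to BM7 and BM8. Over 1 kb from a start site the share was 5.60% in members and 13.4% in all regions. Among distal regions that BM4 and BM8 shared, it was higher with each further library: 7.56% with 1 other library, 11.1% with 3 and 14.3% with all 6. Regions of BM4 alone (6.91%) and of BM8 alone (6.82%) had about the same low share, while regions of the other libraries alone had between 13.2% (BM6) and 26.5% (BM1). Unlike that of AP-1, the difference from all regions kept its sign with each library left out, at -7.90 to -6.42 percentage points.

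**Figure D4:**
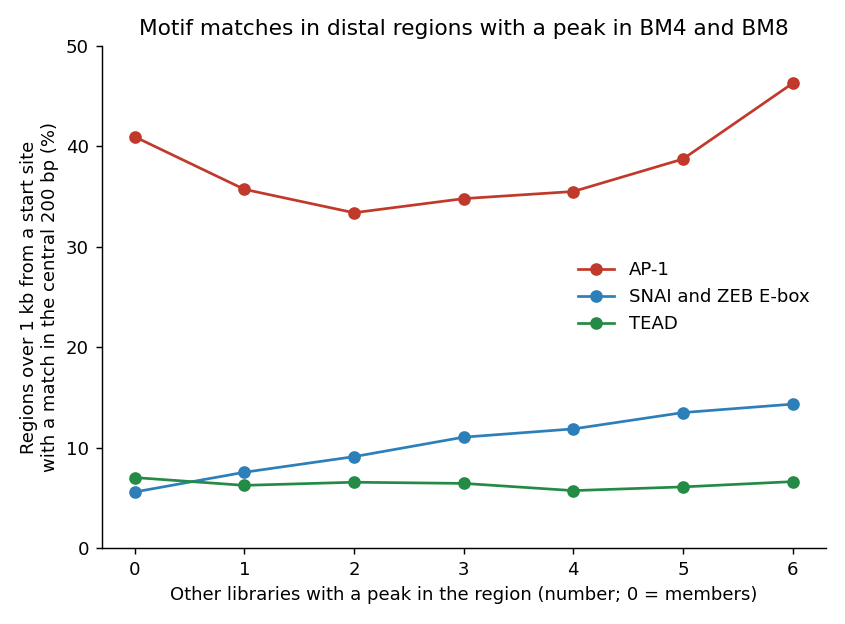
Percentage of regions over 1 kb from a start site with a match in the central 200 bp, for regions with a peak in BM4 and BM8, by the number of other libraries with a peak there; 0 are the members. The CAGGTG share (SNAI and ZEB E-box) is higher with each further library, from 5.60% to 14.3%, while AP-1 is high at both ends (41.0% and 46.3%) and TEAD stays between 5.74% and 7.04%.

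TEAD letters were found in 253 members (6.97%), against 5.41% of all regions and 6.35% of regions of exactly 2 libraries. They were present in 8.03% of the regions private to BM7 and BM8, 8.03% of those of BM8 alone and 4.47% of those of BM4 alone. Without BM8 the difference from all regions was -0.212 percentage points in place of 1.57. The TEAD share was thus above that of all regions in BM8 alone and below it in BM4 alone. AP-1 and TEAD letters stood together in 65 members (1.79%), against 1.29% of all regions. As AP-1 letters by themselves were in 39.1% of members and 26.1% of all regions, this difference does not show that both motifs tend to meet. That was not tested.

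**Figure D5:**
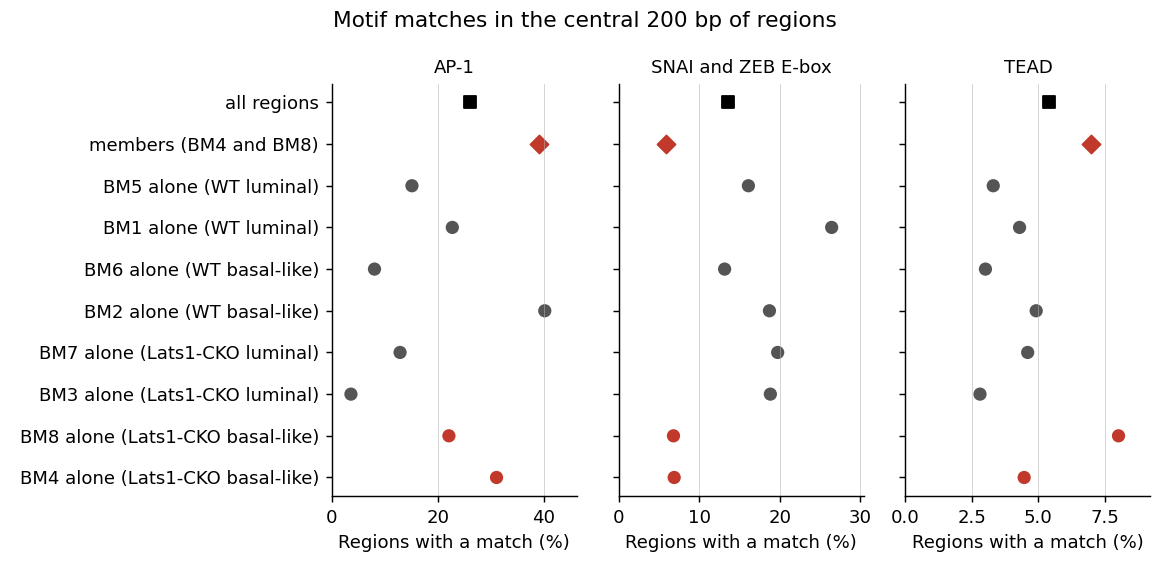
Percentage of regions with a match to AP-1, CAGGTG (SNAI and ZEB E-box) or TEAD in the central 200 bp; circles are regions of 1 library alone (red for BM4 and BM8), the diamond the members and the square all regions. BM4, BM8 and the members lie together at 5.90% to 6.91% for CAGGTG, whereas for AP-1 and TEAD the 2 libraries lie apart.

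The remaining letters differed by less than AP-1 and CAGGTG. RUNX letters were in 8.19% of members and 8.01% of all regions, and FOX letters in 2.89% and 3.002%. SOX letters were in 66 members (1.82%), against 3.19%, and in 1.78% against 3.51% over 1 kb from a start site. The NFI half-site was in 14.7%, against 16.6%, and in 15.2% against 17.8% over 1 kb from a start site. KLF and SP letters, common at promoters, were in 5.62% against 10.6%, but in 4.03% against 4.67% over 1 kb from a start site. The estrogen response element was found in 2 members (0.0551%), against 0.0655% of all regions. The median GC content of the window was 49.0% in members and 49.5% in all regions.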

How the data were processed

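ATAC-seq peaks were analysed in 8 libraries, 2 for each of the 4 groups. According to the study's methods, the authors trimmed reads with cutadapt, aligned unique reads to mm10 with bowtie 1.0.0, removed mitochondrial and duplicate reads and longer fragments, called peaks with MACS2 in each library and removed blacklisted regions. The submitters' processing notes give MACS2 2.1.1.20160309 and Picard 2.3.0, and the study's methods name an earlier MACS2 version. The deposited score of each peak is a whole number from 13 upwards, taken to be that of MACS2, and is not normalized between libraries, so only its percentile within a library was used. A peak caller finds more weak peaks in deeper libraries. No read counts were given, so the depth behind a peak is unknown and no interval for counting error was computed. When replicates were combined, the authors left out a Lats1-CKO luminal replicate because of quality control, and did not name it. In this group BM3 had 14753 peaks, against 51497 to 99022 in the libraries other than BM3. All 8 libraries were kept here.

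Overlapping peaks were merged and centres were assigned to the nearest start site in GENCODE M21, with sequence from GRCm38.p6, in python 3.11.15 with numpy 2.4.6, pandas 2.3.3, scipy 1.17.1, pysam 0.24.0 and samtools 1.23.1, and matplotlib 3.10.9 for figures. Merging, distances and motif searches were tested on simulated data. The members, gene lists, motifs and alternative settings were chosen with earlier results of these data known. Genes were named by rule: the 10 nearest to the most members, the 5 members highest by the smaller percentile in all and the 5 highest within 1 kb of a coding start site, the 5 neighbourhoods with the most members, up to 5 genes a list, and markers of the sort. Ajuba, Ankrd1, Asap1, Axl, Ccn1, Ccn2, Fjx1, Foxf2, Gadd45a, Lats2 and Oxtr were named after their values were seen. The distal shares by number of libraries and the shares of single libraries were also added after the data had been seen.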

Additional observations from a re-analysis of the deposited data

How the results depend on the processing

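A missing peak depends on depth, which is unknown, and each group had 2 libraries. Without 1 library each in turn, 3641 to 24983 regions met the rule, the highest without BM4, when BM8 alone defined the set and its percentile alone was used; the members with both percentiles at 50 or more made up 6.93% to 19.1%, those within 1 kb of a start site 10.3% to 13.9%, the neighbourhoods numbered 19 to 1800, and the difference from all regions was -0.937 to 16.2 percentage points for AP-1, -0.212 to 2.33 for TEAD and -7.90 to -6.42 for CAGGTG. Among the other motifs the same range was -1.10 to 1.11 for RUNX, -1.23 to 2.69 for GATA, -0.0517 to 0.122 for GRHL and -0.0149 to 0.353 for STAT. The sign turned without BM4 for AP-1 (also for RUNX, FOX, GRHL and CEBP) and without BM8 for TEAD (also for GATA, GRHL, STAT and the estrogen response element). RUNX, CEBP and the estrogen response element, with differences near 0, turned without some other libraries too. When each library was limited to its 50000 highest-scoring peaks (all of BM3), there were 1092 members and 2 neighbourhoods, 4.95% had both percentiles (ranked among the kept peaks) at 50 or more, and the differences were 15.01 for AP-1, 2.65 for TEAD and -10.3 for CAGGTG, while RUNX turned to -0.280 and FOX to 0.276. With peaks above the median score there were 1946 members and 7 neighbourhoods, 14.1% within 1 kb, and STAT turned to -0.0690. Merging within 500 bp gave 9.02% within 1 kb and -0.0603 for RUNX. Coding start sites alone gave 9.21%, and a limit of 5 kb 32.9%. A window of 400 bp gave -8.99 for CAGGTG. At most 25 kb between neighbours gave 2 neighbourhoods, and 100 kb gave 68. Members nearest to a single gene stayed within 1.5 times their number in 132 of 220 cases under the settings that kept all libraries. No paired analysis was possible because the labels number no replicates and no test was made.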
